A study of Rattus norvegicus with 14 samples.

Results

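Smooth muscle and peritubular contractile genes were followed in the gonads of fetal rats through 7 of the 10411 genes on the array, Acta2, Tagln, Myl9, Tpm1, Tpm2, Csrp2 and Pln. The 7 genes were chosen with earlier results of these data known, so shares of their probe sets beside shares of all probe sets are descriptions. All probe sets that the array's annotation assigns to exactly 1 of these symbols were then taken, whatever their values. This gave 13 of the 15866 tested probe sets. Tpm1 had 6 probe sets, Pln had 2 and each other gene had 1, and probe sets of the same gene were kept apart. A further 3 probe sets that the annotation assigns to Acta2 together with Actc1, the cardiac actin, were left out. The series held 14 single-colour Affymetrix rat arrays in 7 groups of 2. The groups were testis from embryonic day 13 (E13) kept for 3 days in organ culture on floating filters, fresh testis of E13, E14 and E16, and fresh ovary of E13, E14 and E16. No genotype, strain or drug is given for any group, and the culture medium held insulin, transferrin and albumin. Each array measured RNA from a pool of 20 to 40 gonads, and the 2 pools of a group were independent, so the spread given here is between pools and not between animals. RNA of whole gonads was measured, so fewer cells of a type and less RNA per cell cannot be told apart.

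In smooth muscle, force comes from myosin pulling on thin filaments of actin and tropomyosin, and it is switched on when calcium leads to phosphorylation of the myosin regulatory light chain. In the testis, a layer of flattened peritubular myoid cells with this machinery comes to surround the seminiferous cords after these have formed around the Sertoli cells. Smooth muscle of blood vessels uses the same genes, and several of them are also expressed at lower levels in other cells with stress fibres. Acta2 encodes the smooth muscle alpha-actin used as a marker of peritubular myoid cells, Tagln the actin-bundling protein transgelin, Tpm1 and Tpm2 the tropomyosins that lie along the actin filament, and Myl9 the regulatory light chain of smooth muscle and non-muscle myosin. Csrp2 encodes a LIM domain protein of smooth muscle, and Pln encodes phospholamban, which restrains the calcium pump of the sarcoplasmic reticulum.

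Many smooth muscle genes are switched on by serum response factor, which binds the CArG box. The 250 bases before the annotated start were searched for this box on both strands in the 5 of the 7 genes that RefSeq's promoter table of assembly GRCr8 held; Tagln and Myl9 were not matched. No exact CArG box lay in any of the 5 stretches, whereas Acta2 and Tpm1 each held 2 that were off by 1 letter, and these stretches are shown because they hold the boxes. A box with at most 1 letter off was present in 18.7% of the 33469 promoters of the table, and an exact box in 1.5%; these shares were counted over the same 250 bases. The boxes are in capitals, the sequences run 5′ to 3′ on the gene's strand, and both genes lie on the minus strand, Acta2 at chr1:241172504-241172753 and Tpm1 at chr8:76543416-76543665.
Acta2: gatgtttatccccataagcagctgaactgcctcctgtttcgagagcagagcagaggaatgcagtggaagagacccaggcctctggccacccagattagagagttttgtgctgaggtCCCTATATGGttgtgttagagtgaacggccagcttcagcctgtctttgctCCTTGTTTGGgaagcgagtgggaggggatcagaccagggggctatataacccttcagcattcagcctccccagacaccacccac
Tpm1: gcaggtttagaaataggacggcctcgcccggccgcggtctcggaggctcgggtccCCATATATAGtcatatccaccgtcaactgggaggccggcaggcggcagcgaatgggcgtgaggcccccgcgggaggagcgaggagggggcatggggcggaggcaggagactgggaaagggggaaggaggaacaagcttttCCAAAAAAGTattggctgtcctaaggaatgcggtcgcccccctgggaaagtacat
In Acta2 the boxes began 134 and 84 bases before the start, and in Tpm1 195 and 55 bases before it. The Tpm2, Csrp2 and Pln stretches held no box within 1 letter, which says only that these letters are not in this window. Tpm1 is known to use more than 1 start site, and the table gives 1.

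Values are intensities on a linear scale, scaled per array by the submitters, and every log2 difference is on the scale log2(value + 16), which understates changes of dim probe sets. Sry, the switch of testis fate on the Y chromosome that is on only briefly, stood at 163 and 185 in E13 testis and at 13.1 to 45.9 on the other arrays. Xist, which is transcribed from an inactive X chromosome, went against the label on 4 arrays. It stood at 151, 36.2 and 269 on array 1 of cultured E13, fresh E13 and fresh E14 testis, against 1.5 to 4.8 on the other testis arrays. It was 12.8 on array 2 of E16 ovary, against 152 to 672 on the other ovary arrays, with the 152 on array 1 of E16 ovary. Amh, a Sertoli cell marker, followed the label on every array, at 63.9 to 1092.8 in testis and 9.6 to 38.5 in ovary. Of the 4 arrays, those of cultured E13, fresh E13 and fresh E14 testis had Amh at 738.5, 79.5 and 759.6. Array 2 of E16 ovary had Amh at 9.6. The cause of the Xist levels on these 4 arrays was not tested. The actin control probe sets gave a 3′ over 5′ ratio, a sign of RNA quality, of 3.35 on array 1 of E16 ovary and 2.97 on array 2 of cultured testis, against 1.48 to 2.13 elsewhere. Each array of E16 ovary and of cultured testis was thus flagged, by either its Xist level or its actin ratio. Comparisons with these groups had no unflagged array on that side, and no fit left out both sets of flagged arrays. Counts of passing probe sets are given with and without each of these sets below. Over the 13 probe sets, r between the 2 arrays within a group was 0.956 to 0.990.

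**Figure D1:**
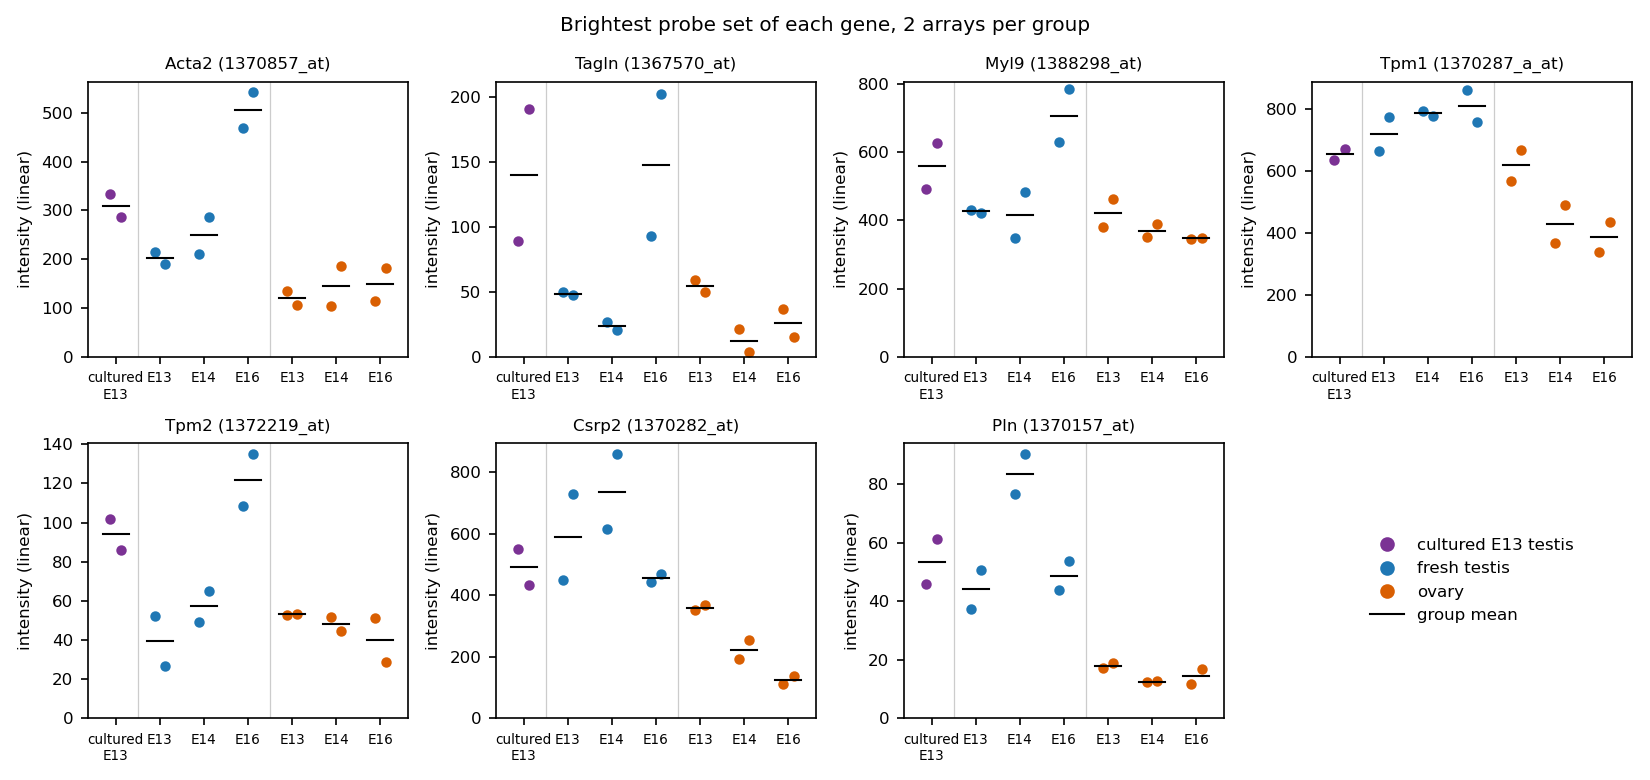
Intensity (linear scale, vertical axis from 0) of the probe set with the highest mean of each of the 7 genes on each of the 14 arrays. Points are arrays, horizontal lines are means of 2 arrays, and groups run from cultured E13 testis over fresh testis (E13, E14, E16) to ovary (E13, E14, E16). In all 7 panels both E16 testis arrays lie above both E16 ovary arrays, and Acta2, Csrp2 and Pln are separated at all 3 ages.

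At E16 the contractile genes were higher in the testis than in the ovary. By limma with Benjamini-Hochberg adjustment over all 15866 probe sets, 8 of the 13 probe sets passed at an adjusted p under 0.05, and these 8 covered all 7 genes. Of these, Tagln did not pass with an offset of 1 or 64 in place of 16 or after quantile normalization. Myl9, Tpm2 and both Tpm1 probe sets among the 8 (1370287_a_at and 1370288_a_at) did not pass with an offset of 1. All 8 were higher in testis, against 1.01% of all probe sets that passed as higher and 0.725% as lower. Arrays of testis lay above those of ovary without overlap for 13 of 13 probe sets, against 25.6% of all probe sets. The median log2 difference was 1.05 over the 13 probe sets, beside 0.05 over all probe sets tested.

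Acta2 (1370857_at) stood at 470 and 543 in E16 testis and at 115 and 183 in E16 ovary. Its lowest testis array was thus more than 2-fold above its highest ovary array. The means were 506 ± 51.3 in testis and 149 ± 47.5 in ovary (SD, n = 2 each), a log2 difference of 1.69 ± 0.28 (SE; adjusted p = 0.0121). Tagln (1367570_at) stood at 93.4 and 202 in E16 testis and at 37.2 and 15.4 in E16 ovary. The Tagln arrays did not overlap, but the 2 of a sex lay far apart, and the log2 difference of 1.92 had the widest error of the 8, 0.42 (adjusted p = 0.0461).

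Myl9 (1388298_at) stood at 628 and 784 in E16 testis and at 344 and 349 in E16 ovary, a log2 difference of 0.99 ± 0.21 (adjusted p = 0.0397). The 2 ovary arrays were nearly equal and both below either testis array. Tpm2 (1372219_at) stood at 109 and 135 in E16 testis and at 51.2 and 28.8 in E16 ovary, a log2 difference of 1.32 ± 0.26 (adjusted p = 0.0288). Of the 6 Tpm1 probe sets, 1370287_a_at and 1370288_a_at passed. The first averaged 810 ± 72.8 in E16 testis and 386 ± 67.6 in E16 ovary, with a log2 difference of 1.05 ± 0.20 (adjusted p = 0.0225). The second averaged 325 ± 37.2 in E16 testis and 98.8 ± 0.424 in E16 ovary, with a log2 difference of 1.57 ± 0.29 (adjusted p = 0.022). The other 4 Tpm1 probe sets had log2 differences of 0.26 to 0.64, above 0 but not past the threshold, and 2 of them, 1370513_at and 1371240_at, were dim on every array, at 1.4 to 15.7 and at 2.7 to 12.8.

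Csrp2 (1370282_at) stood at 441 and 469 in E16 testis and at 112 and 137 in E16 ovary. Both pairs were tight and more than 3-fold apart, and the log2 difference was 1.75 ± 0.26 (adjusted p = 0.00639). Pln (1370157_at) stood at 43.8 and 53.7 in E16 testis and at 11.7 and 17.0 in E16 ovary, a log2 difference of 1.09 ± 0.19 (adjusted p = 0.0156). The other Pln probe set, 1388876_at, was dim, at 27.3 and 9.0 in testis and 3.9 and 2.2 in ovary, and its log2 difference of 0.79 ± 0.28 did not pass (adjusted p = 0.245).

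The E16 count rested on few arrays. It was 0 without E16 testis array 2, 1 without E16 testis array 1, 2 without E16 ovary array 1, 4 without E16 ovary array 2 and 5 without either E13 ovary array, since the arrays of all groups share the estimate of the spread; without the 4 arrays at odds with their Xist level it was 0, with log2 differences of the 8 probe sets of 1.00 to 1.99, and without the 2 arrays with a high actin ratio it was 2. Array 2 of E16 testis and array 2 of E16 ovary, the latter at odds with its Xist level, came from the same chip batch, as read from the form of the array names. Within it the 8 probe sets differed by 0.78 (Tpm1 1370287_a_at) to 2.80 (Tagln) on the log2 scale. As no arrays overlapped between the sexes, the direction within the batch was fixed in advance and only the size is added.

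At E14, Csrp2 and Pln were higher in testis than in ovary: 2 of the 13 probe sets passed, both higher in testis, against 0.0693% of all probe sets. Whether these genes diverged earlier than the others was not tested. Pln (1370157_at) stood at 76.6 and 90.2 in E14 testis and at 12.3 and 12.6 in E14 ovary, a log2 difference of 1.80 ± 0.19 (adjusted p = 0.00598). Its other probe set, 1388876_at, had 31.4 and 51.6 in E14 testis and 9.6 and 3.9 in E14 ovary, a log2 difference of 1.33 ± 0.28 that did not pass (adjusted p = 0.139). Csrp2 stood at 615 and 857 in E14 testis and at 191 and 254 in E14 ovary, a log2 difference of 1.65 ± 0.26 (adjusted p = 0.0379). For both genes the lowest testis array was more than 2-fold above the highest ovary array. No other member passed. Acta2 stood at 211 and 287 in E14 testis and at 105 and 186 in E14 ovary, also without overlap, and differed by 0.75 ± 0.28 (adjusted p = 0.529). Tpm1 1370287_a_at differed by 0.87 ± 0.20 (adjusted p = 0.167), while Myl9, Tpm2 and Tagln overlapped between the sexes. For 9 of the 13 probe sets the E14 testis arrays lay above the E14 ovary arrays without overlap, against 18.3% of all probe sets.

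The Pln call at E14 was lost without E14 testis array 2 (log2 difference 1.70, adjusted p = 0.116), and the Csrp2 call without 11 of the 14 arrays taken singly (highest adjusted p = 0.424, without E14 testis array 2) and with the chip period as a block (adjusted p = 0.0525). The count at E14 was thus 0 without E14 testis array 2, 1 without any ovary, cultured or E16 testis array, 0 without the 4 arrays at odds with their Xist level, and 1 without the 2 arrays with a high actin ratio; within chip batch 3, Pln differed by 1.89 and Csrp2 by 1.69.

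At E13, when the sexes are just diverging, no member passed in limma's test, and 0.0126% of all probe sets did. At an unadjusted p under 0.05 there were 3 probe sets, all higher in testis, against 7.79% of all probe sets. They were Pln (1370157_at), with 37.5 and 50.8 in E13 testis and 17.1 and 18.8 in E13 ovary (log2 difference 0.82 ± 0.19, adjusted p = 0.449), Csrp2 (0.65 ± 0.26, adjusted p = 0.588) and Acta2 (0.68 ± 0.28, adjusted p = 0.596). Arrays of E13 testis lay above those of E13 ovary for 5 probe sets and below for 2, Tagln and Tpm2. These shares are to be read against 27.1% and 19.1% of all probe sets.

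**Figure D2:**
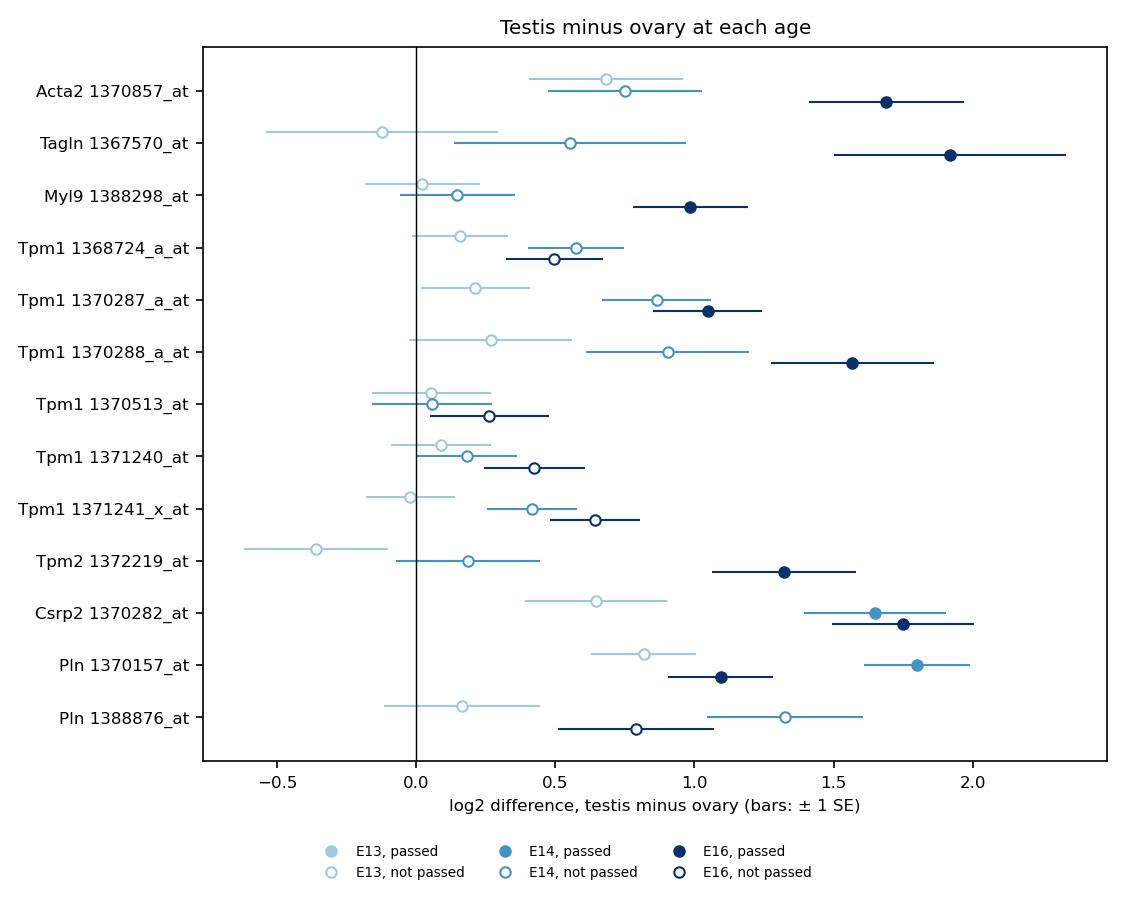
Log2 difference between testis and ovary (horizontal axis, testis minus ovary on the log2(value + 16) scale) of the 13 probe sets at E13, E14 and E16, with bars of 1 SE. Filled points passed at an adjusted p under 0.05: none at E13, Csrp2 and Pln 1370157_at at E14, and 8 probe sets at E16.

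Averaged over the 3 ages, 6 probe sets of 4 genes passed, all higher in testis, against 1.28% of all probe sets. Csrp2 differed by 1.35 (adjusted p = 0.00116), Acta2 by 1.04 (adjusted p = 0.00793), Pln by 1.24 (1370157_at, adjusted p = 0.000354) and 0.76 (1388876_at, adjusted p = 0.0347), and Tpm1 by 0.71 (1370287_a_at, adjusted p = 0.00882) and 0.91 (1370288_a_at, adjusted p = 0.0192). Over all probe sets 55.5% of those that passed were higher in testis, and 44.9% after quantile normalization. Under that normalization 6 member probe sets passed, but Pln 1388876_at was no longer among them. With the chip period as a block, Acta2, Tpm1 1370287_a_at, Tpm1 1370288_a_at and Pln 1388876_at did not pass, so the count under that block holds a member outside the named 6. With the chip period as a block the count was 3, and without the 4 arrays at odds with their Xist level it was 2, Csrp2 and Pln 1370157_at.

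Whether the sex difference itself was larger at E16 than at E13 was tested as an interaction, and no member passed, against 0.145% of all probe sets. The estimate was above 0 for 13 of 13 probe sets, with a median of 0.83, and 8 had an unadjusted p under 0.05, against 6.49% of all probe sets. It was 2.04 ± 0.59 for Tagln (adjusted p = 0.387), 1.68 ± 0.37 for Tpm2 (adjusted p = 0.157), 1.01 ± 0.39 for Acta2 (adjusted p = 0.659) and 0.28 ± 0.27 for Pln 1370157_at (adjusted p = 0.947). With the chip period as a block, Tpm2 passed (log2 difference 1.75, adjusted p = 0.047).

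Over age within each sex the members differed in their course, and no test separated one course from another. In Acta2, Tagln, Myl9 and Tpm2 both E16 testis arrays lay above both E13 testis arrays, as they did for 18.9% of all probe sets. Tpm2 stood at 109 and 135 in E16 testis and at 52.2 and 26.6 in E13 testis, and it rose by 1.35 ± 0.26 on the log2 scale (adjusted p = 0.0357). Acta2 had 470 and 543 in E16 testis and 215 and 191 in E13 testis, a difference of 1.25 ± 0.28 just short of the threshold (adjusted p = 0.0666). Tagln differed by 1.26 ± 0.42 (adjusted p = 0.26) and Myl9 by 0.70 ± 0.21 (adjusted p = 0.189), neither past the threshold. In the ovary these 4 genes gave log2 differences between E16 and E13 of 0.24 for Acta2, -0.26 for Myl9, -0.33 for Tpm2 and -0.79 for Tagln, and none passed. Both E16 ovary arrays of Myl9, Tpm2 and Tagln lay below both E13 ovary arrays, whereas those of Acta2 overlapped.

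Between the ages, the E14 testis values of Acta2 were 211 and 287, those of Myl9 348 and 484, and those of Tpm2 49.4 and 65.1, each below both E16 arrays. Tagln had its lowest testis values at E14, 26.6 and 20.9, and its E14 ovary arrays, at 21.1 and 3.7, were also below both E13 ovary arrays, at 59.3 and 50. No member passed between E14 and E13 testis, where 0.0693% of all probe sets did and 4 members had an unadjusted p under 0.05 against 7.19% of all probe sets, or between E16 and E14 testis, where 0.12% did and 8 members had an unadjusted p under 0.05, 4 in each direction, against 5.16%.

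In Csrp2 and the Tpm1 probe sets 1370287_a_at and 1370288_a_at, the arrays of E16 and E13 testis overlapped, and both E16 ovary arrays again lay below both E13 ovary arrays. Csrp2 had 112 and 137 in E16 ovary, 191 and 254 in E14 ovary and 351 and 369 in E13 ovary, with no overlap between the ages. It fell by 1.42 ± 0.26 between E16 and E13 ovary (adjusted p = 0.0296), and its difference in the testis was -0.32 ± 0.26 (adjusted p = 0.743). Tpm1 1370287_a_at had 338 and 434 in E16 ovary and 567 and 668 in E13 ovary, a difference of -0.66 ± 0.20 that did not pass (adjusted p = 0.184). For 1370288_a_at it was -1.20 ± 0.29 (adjusted p = 0.0984). In the testis these 2 probe sets differed by 0.17 and 0.10.

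Pln (1370157_at) had ovary arrays of 11.7 to 18.8 at all 3 ages, and its testis mean was 44.2 ± 9.41 at E13, 83.4 ± 9.62 at E14 and 48.8 ± 7.0 at E16. Both E14 testis arrays lay above all other testis arrays, but the steps did not pass (adjusted p = 0.32 for E14 against E13 and 0.603 for E16 against E14). The dimmer Pln probe set also had its 2 highest values among fresh testis, 31.4 and 51.6, at E14.

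In all, 1 of the 13 probe sets passed as higher and 1 as lower in E16 against E13 testis, where 0.706% and 0.24% of all probe sets did, and 0 as higher and 3 as lower in E16 against E13 ovary, where 0.46% and 0.429% did. The ovary arrays of E16 lay below those of E13 for 11 of the 13 probe sets, against 22.4% of all probe sets. The testis count of 2 became 0 without E16 testis array 1, E16 testis array 2 or E13 testis array 2, 1 without E13 testis array 1 or any E13 ovary, E14 testis or cultured array, and 4 with the chip period as a block, and the ovary count of 3 became 1 without any of the E13 ovary, E16 ovary or E16 testis arrays. How both counts changed without the arrays at odds with their Xist level or with a high actin ratio is given below. Within a chip period that held both ages, the testis calls differed by 1.83 (Tpm2) and -0.94 (Tpm1 1371241_x_at). The ovary calls differed there by -0.92 (Tpm1 1368724_a_at), -1.52 (Tpm1 1371241_x_at) and -1.55 (Csrp2). None of these overlapped between the ages, so their direction within a period was fixed in advance.

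**Figure D3:**
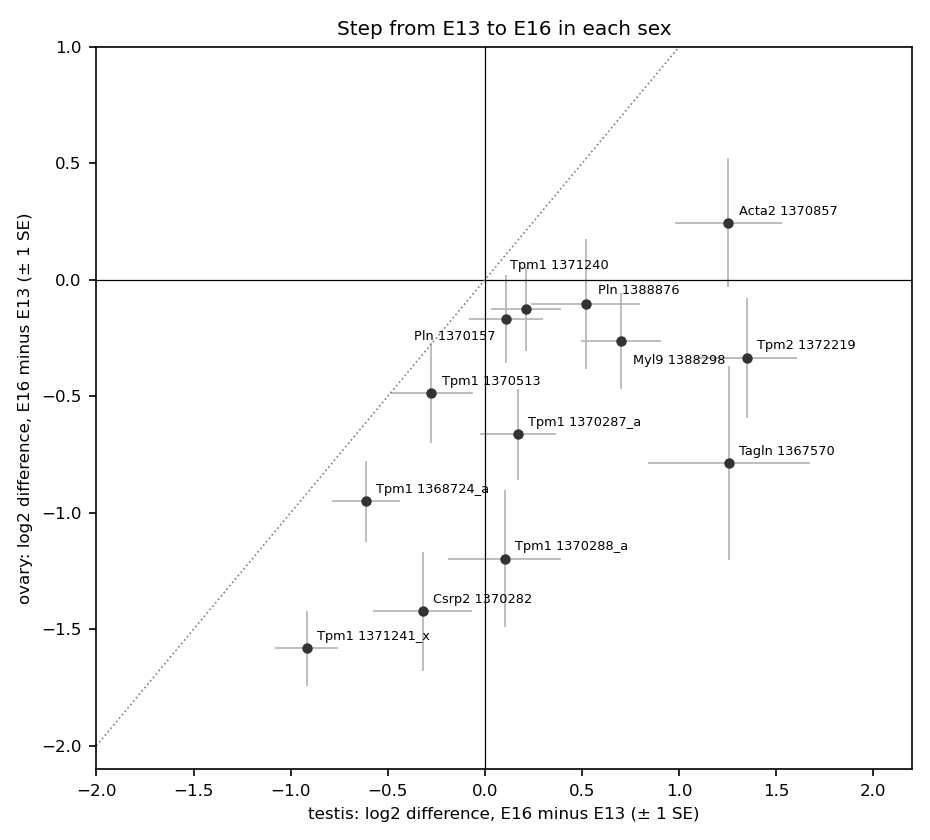
Log2 difference between E16 and E13 in testis (horizontal axis) and in ovary (vertical axis) for the 13 probe sets, with bars of 1 SE; the dotted line marks equal steps. All points lie below the line, with Acta2, Tagln, Myl9 and Tpm2 to the right and Csrp2 and 3 Tpm1 probe sets at the bottom.

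The Tpm1 probe sets did not report the same course. Tpm1 makes many tropomyosin isoforms by alternative starts, exons and ends. Which isoforms each probe set reads is not given in the sources used here. Nor is it given whether 1371241_x_at or another of these probe sets also reads transcripts of other genes. Probe set 1371241_x_at had 68.2 and 61.4 in E16 ovary and 209 and 243 in E13 ovary, and it fell by 1.58 ± 0.16 (adjusted p = 0.00238). In the testis it had 117 and 103 at E16, 154 and 154 at E14 and 233 and 212 at E13, and it fell by 0.92 ± 0.16 between E16 and E13 (adjusted p = 0.0235). Probe set 1368724_a_at fell by 0.95 ± 0.17 in the ovary (adjusted p = 0.0329), with 118 and 113 at E16 and 227 and 250 at E13. Its difference in the testis was -0.61 ± 0.17 (adjusted p = 0.161). So these 2 probe sets, and the dim 1370513_at, were lower at E16 than at E13 in both sexes without overlap, whereas 1370287_a_at and 1370288_a_at overlapped between E16 and E13 testis.

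Across the 14 arrays 1371241_x_at and 1368724_a_at correlated at r = 0.905, and 1370287_a_at and 1370288_a_at at r = 0.802, while 1370287_a_at and 1371241_x_at had r = 0.452; the arrays share pools, groups and chips, so these are descriptions. The log2 difference between 1370287_a_at and 1371241_x_at within an array was not constant. It was 2.71 ± 0.012 in E16 testis, 2.24 ± 0.023 in E14 testis and 1.62 ± 0.24 in E13 testis. In ovary it was 2.31 ± 0.33 at E16, 1.79 ± 0.364 at E14 and 1.39 ± 0.019 at E13, and in cultured E13 testis 2.87 ± 0.165. This within-array value shows that the 2 probe sets did not keep 1 ratio, and not what either one's transcripts did.

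**Figure D4:**
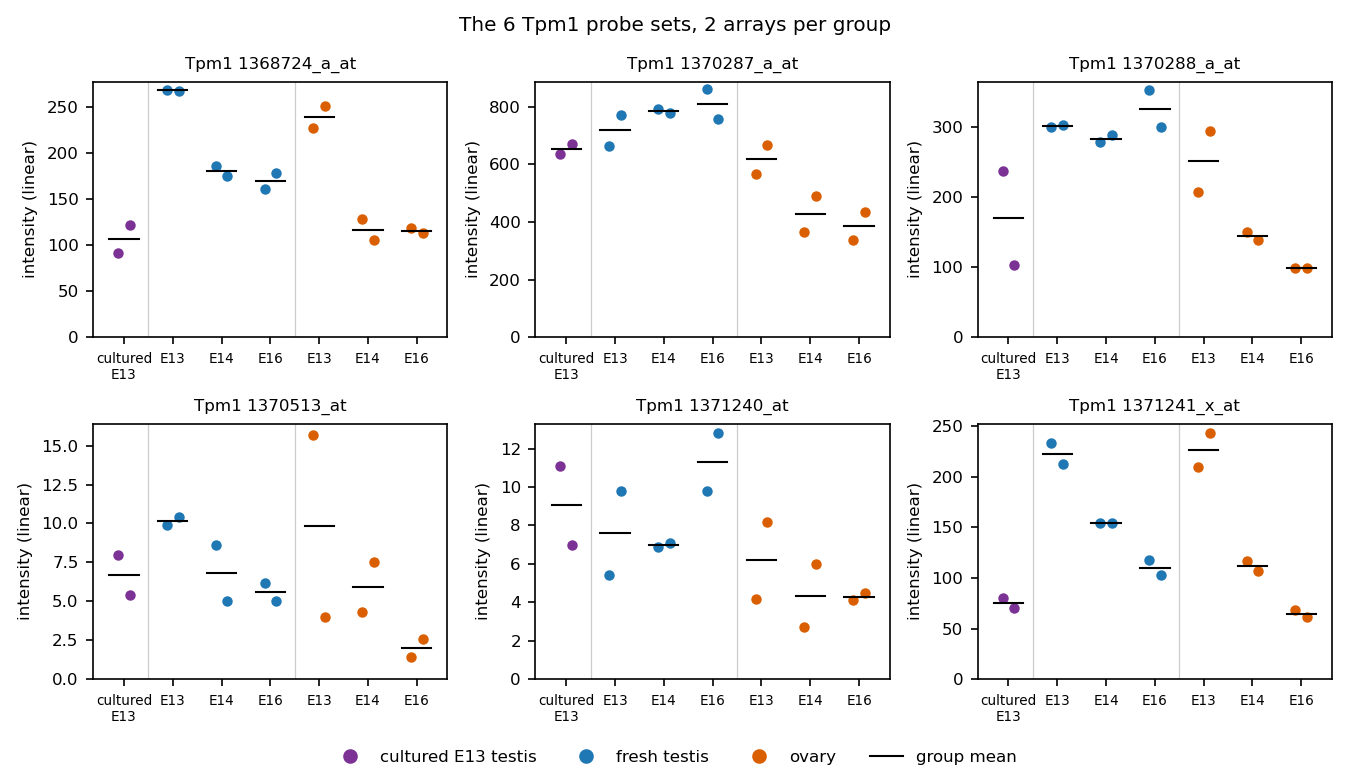
Intensity (linear scale, vertical axes from 0 and of different height) of the 6 Tpm1 probe sets on the 14 arrays, with means of 2 arrays as lines. Probe sets 1368724_a_at and 1371241_x_at are lower at E16 than at E13 in testis and ovary and low in cultured testis, 1370287_a_at and 1370288_a_at overlap between E16 and E13 testis, and 1370513_at and 1371240_at stay under 16 throughout.

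The 3 days of organ culture span the time from E13 to E16, so cultured E13 testis was set against fresh E13 and fresh E16 testis. Against fresh E13, 2 of the 13 probe sets passed, both Tpm1 and both lower, where 0.334% of all probe sets passed as lower and 1.06% as higher. Probe set 1371241_x_at had 80.3 and 70.4 in cultured testis and 233 and 212 in fresh E13 testis, a fall of 1.39 ± 0.16 on the log2 scale (adjusted p = 0.00192). Probe set 1368724_a_at had 91.9 and 121 in cultured testis and 269 and 267 in fresh E13 testis, a fall of 1.22 ± 0.17 (adjusted p = 0.00628). Both probe sets were also lower at E16 than at E13 in the fresh gonads, as was the dim 1370513_at, and the 2 comparisons in the testis share the fresh E13 arrays. The cultured arrays of 1370513_at also lay below both fresh E13 arrays, but it did not pass (log2 difference -0.21, adjusted p = 0.784).

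Tpm2, Tagln, Acta2 and Myl9 did not pass between cultured and fresh E13 testis. The comparison of E16 with E13 testis used the same fresh E13 arrays, so nothing is read from a shared direction. Tpm2 had 102 and 86.0 in cultured testis and 52.2 and 26.6 in fresh E13 testis (log2 difference 1.03 ± 0.26, adjusted p = 0.102). Tagln had 89.1 and 191 in cultured testis and 49.6 and 47.8 in fresh E13 testis (1.19 ± 0.42, adjusted p = 0.253). Acta2 had 334 and 287 in cultured testis and 215 and 191 in fresh E13 testis (0.57 ± 0.28, adjusted p = 0.437), and Myl9 had 493 and 625 in cultured testis and 431 and 420 in fresh E13 testis (0.37 ± 0.21, adjusted p = 0.522). For all 4 and for Pln 1388876_at the cultured arrays lay above both fresh E13 arrays, and for 4 of the 13 probe sets they lay below, where 19.8% and 19.6% of all probe sets did. In a fit with the chip period as a block, Tpm2 (log2 difference 1.32, adjusted p = 0.0184) and Tagln (1.77, adjusted p = 0.0398) passed as well. Csrp2 and Pln 1370157_at overlapped between cultured and fresh E13 testis.

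Against fresh E16 testis no member passed, and 0.0945% of all probe sets did; 4 members had an unadjusted p under 0.05, all lower in culture, against 6.67% of all probe sets. Acta2 had 334 and 287 in cultured testis and 470 and 543 in fresh E16 testis, without overlap (log2 difference -0.68 ± 0.28, adjusted p = 0.704); within the 2 chip batches that held both groups, the difference was -0.88 and -0.48. Tpm1 1370288_a_at was -0.97 ± 0.29 (adjusted p = 0.504), and its 2 cultured arrays, 237 and 103, lay further apart than those of any other group; without cultured array 1 it passed (log2 difference -1.51, adjusted p = 0.0382). Against fresh E14 testis no member passed either, where 0.277% of all probe sets did and 6 members had an unadjusted p under 0.05, against 8.37% of all probe sets. Tpm1 1371241_x_at was nearest to the threshold (log2 difference -0.90, adjusted p = 0.0536), and it passed with the chip period as a block, as did Tagln, while without cultured array 1 Tpm1 1370288_a_at passed (log2 difference -1.33, adjusted p = 0.0454).

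The count against fresh E13 was 2 or 3 without any single array, 2 without the 2 arrays with a high actin ratio and 0 without the 4 arrays at odds with their Xist level, where the 2 log2 differences were -1.40 and -1.04. Within the chip period that held cultured array 2 and fresh E13 array 2, the same pair differed by -1.40 (1371241_x_at) and -1.04 (1368724_a_at).

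**Figure D5:**
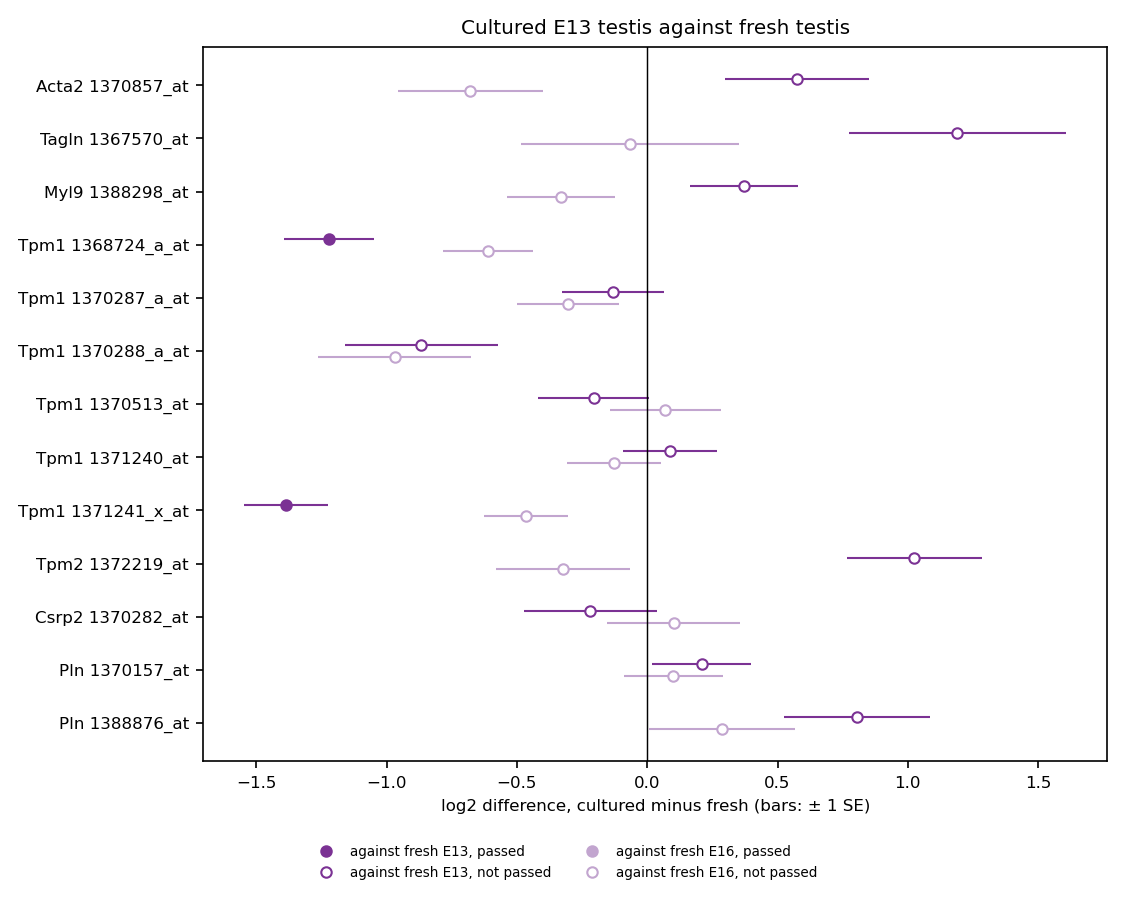
Log2 difference between cultured E13 testis and fresh E13 testis (dark) or fresh E16 testis (light) for the 13 probe sets, cultured minus fresh, with bars of 1 SE. Filled points passed at an adjusted p under 0.05, which only Tpm1 1368724_a_at and 1371241_x_at did, both against fresh E13.

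In the order of group means, Acta2 ran from E16 testis over cultured, E14 and E13 testis to E16, E14 and E13 ovary, and of the 6 steps between neighbours only 2 were free of overlap, E16 testis to cultured testis and E13 testis to E16 ovary. Tagln ran from E16 and cultured testis, which overlapped, to E14 ovary, with 3 of 6 steps free of overlap. Csrp2 ran from E14 testis, which overlapped E13 testis, down to E13, E14 and E16 ovary, with 3 steps free of overlap, all at the ovary end. Pln 1370157_at ran from E14 testis, free of overlap with cultured testis below it, to E14 ovary, also with 3 such steps.

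Correlations across all 14 arrays are given as descriptions, since the arrays of a group share their condition. Myl9 correlated with Acta2 at r = 0.820, with Tpm2 at 0.827, with Tagln at 0.811 and with Tpm1 1370287_a_at at 0.620. Acta2 correlated with Tpm2 at 0.729, with Pln 1370157_at at 0.693, with Tpm1 1370287_a_at at 0.667 and with Tagln at 0.580. Csrp2 correlated with Tpm1 1370287_a_at at 0.908, with Pln 1370157_at at 0.858, with Acta2 at 0.535, with Myl9 at 0.468, with Tagln at 0.336 and with Tpm2 at 0.302. The 2 Pln probe sets correlated at 0.782.

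A filter on level admits genes that are high in 1 group only, and Lhcgr and Foxs1 below reached a mean of 100 in E16 testis alone, so the neighbours describe likeness within this filter only. Among 844 probe sets with a group mean of at least 100 and a range of group means of at least 1 on the log2 scale, the nearest to Acta2 were Hsd17b3 (r = 0.944), an enzyme of testosterone synthesis, Lhcgr (r = 0.939), the luteinizing hormone receptor, and Cd59b (r = 0.938), a complement inhibitor. Nearest to Tagln were Star (r = 0.934), which moves cholesterol into mitochondria, Igfbp3 (r = 0.924) and Tagln2 (r = 0.900), and nearest to Myl9 were Lhcgr (r = 0.904), Foxs1 (r = 0.890) and Pdlim3 (r = 0.889). For Tpm2 they were Jag1 (r = 0.933), a Notch ligand, Il6st (r = 0.920) and Lcn2 (r = 0.914). Csrp2 was nearest to Tpm4 (r = 0.963), another tropomyosin, Tcf21 (r = 0.933), a transcription factor of gonadal mesenchyme, and Dusp6 (r = 0.932), and Tpm1 1370287_a_at to Tcf21 (r = 0.947), Csrp2 and Tpm4 (r = 0.907). Pln 1370157_at was nearest to Aldh1a2 (r = 0.947), which makes retinoic acid, Rgs2 (r = 0.911) and Cst8 (r = 0.907). Tcf21 averaged 651 in E16 testis and 121 in E16 ovary, and Hsd17b3 averaged 152 in E16 testis and 24.8 in E16 ovary.

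Other genes of the contractile apparatus were counted by list, without the 7 members. The lists, too, were chosen with earlier results of these data known. At E16, of 31 measured genes for actin and actin filament proteins, 7 passed as higher in testis and 0 as lower, against 1.01% and 0.725% of all probe sets, with a median log2 difference of 0.42 beside 0.05 over all probe sets. They included Fhl2, which averaged 105 ± 9.12 in testis and 40.7 ± 0.354 in ovary (log2 difference 1.09, adjusted p = 0.00868), and Csrp1, a relative of Csrp2, with 352 ± 14.9 in testis and 164 ± 32.3 in ovary (1.05, adjusted p = 0.0163). Vim, the intermediate filament protein of mesenchyme, differed by 1.00 (adjusted p = 0.0247) and Pdlim3 by 1.12 (adjusted p = 0.0362). Of 14 genes for myosins and their regulators, none passed in limma's test. Among them Myh11, the smooth muscle myosin heavy chain, averaged 72.7 ± 31.9 in E16 testis and 71.5 ± 30.8 in E16 ovary, and Mylk, the kinase of the regulatory light chain, 505 ± 72.6 in testis and 227 ± 96.6 in ovary (log2 difference 1.15, adjusted p = 0.0787). Cnn1, a late marker of smooth muscle, averaged 45.3 ± 25.4 in testis and 13.2 ± 3.04 in ovary and did not pass (adjusted p = 0.193).

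Of 13 genes for calcium handling, Itpr1, a calcium release channel, passed and was lower in E16 testis, with 105 ± 5.66 in testis and 220 ± 1.27 in ovary (log2 difference -0.97, adjusted p = 0.0129). It was also lower in cultured than in fresh E13 testis, with 94.7 ± 5.94 in cultured and 185 ± 10.5 in fresh testis (-0.86, adjusted p = 0.028). Of 10 genes for serum response factor and its other targets, none passed at E16, with a median of 0.05. Of 7 peritubular and hedgehog target genes, Nr2f2, a nuclear receptor of interstitial mesenchyme, passed as higher in E16 testis (750 ± 135.6 in testis and 310 ± 113.2 in ovary, log2 difference 1.27, adjusted p = 0.0406). In the ovary 3 of these 7 were lower at E16 than at E13, against 0.429% of all probe sets: Nr2f2 fell by 1.34 (adjusted p = 0.0464), Bmp4 fell by 1.05 (adjusted p = 0.0329) and Cxcl12 fell by 2.54 (adjusted p = 0.00543). Of these 7, only Bmp4 passed between cultured and fresh E13 testis, and it was lower in culture, as were 0.334% of all probe sets. None of the 5 lists had a gene that passed between the sexes at E13.

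Markers of other cell types moved with some of these comparisons, and their part in the results was not tested. Of all probe sets, 1.01% passed as higher and 0.725% as lower in E16 testis than in E16 ovary. Between cultured and fresh E13 testis, 1.06% passed as higher and 0.334% as lower in culture. The summed intensity of 7 fetal Leydig cell markers was 4200 and 8215 in E16 testis and 216 and 142 in E16 ovary, and 3512 and 4586 in cultured and 224 and 212 in fresh E13 testis. Of these 7, 6 passed as higher in E16 testis than in E16 ovary, and 5 as higher in cultured than in fresh E13 testis. For 8 Sertoli cell markers the sum was 3322 and 3281 in E16 testis and 827 and 982 in E16 ovary. Of these 8, 6 passed at E16 as higher in testis and Ptgds as lower. The sum of the 8 was 2911 and 3662 in cultured and 824 and 643 in fresh E13 testis, where 5 passed as higher in culture. That of 10 stromal matrix markers was 9046 and 9346 in cultured and 6062 and 6419 in fresh E13 testis, where Mgp (log2 difference 4.54, adjusted p = 0.00045) and Dcn (2.60, adjusted p = 0.00447) passed as higher. This sum was 8867 and 9704 in E16 testis and overlapped with E16 ovary, at 8890 and 7432, where Postn passed as lower in testis and none as higher. That of 25 cardiac and skeletal muscle markers was 984 and 1142 in E16 testis and 655 and 686 in E16 ovary, and 966 and 1172 in cultured and 721 and 817 in fresh E13 testis. Of these 25 genes, 2 passed at E16 as higher in testis, Myh6 (log2 difference 1.97, adjusted p = 0.00616) and Tnnt2 (1.85, adjusted p = 0.0148). Only Tnnc1 passed between cultured and fresh E13 testis, as higher in culture. Of the 25, 14 stayed under 50 on every array and 4, Myh3, Myh8, Myl2 and Myod1, under 20. Of 8 pericyte and vascular mural markers, Pdgfrb passed at E16 (1.18, adjusted p = 0.0294), and their sum was 577 and 601 in E16 testis and 421 and 377 in E16 ovary. The sum of 7 endothelial markers overlapped, at 544 and 545 in E16 testis and 590 and 522 in E16 ovary. The sum of 6 mesonephros and kidney markers was lower in E16 testis, at 291 and 201, than in E16 ovary, at 400 and 396, and none of the 6 passed. It was 340 and 174 in cultured testis and 543 and 487 in fresh E13 testis, again with none of the 6 past the threshold.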

How the data were processed

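Each array gave 1 intensity per probe set on a linear scale. Per the labels' protocols, biotin-labelled target was made by standard Affymetrix procedures from Trizol RNA of pooled gonads; how probes were summarised, with which program and filters, is not given in the sources used here. Deposited intensities had been scaled by the authors to a mean of 125 per array after trimming 2% at each end, as their values show, and 27 values were 0. Single arrays and their number, not a read depth, limit the precision. After 57 control probe sets were left out, log2(value + 16) of 15866 probe sets was fitted with limma 3.58.1 in R 4.3.3 (7 groups, all 14 arrays, 7 residual degrees of freedom), with Benjamini-Hochberg adjustment over all probe sets for each of 12 comparisons and a threshold of 0.05; the script was tested on simulated data. The spread is shared by all groups, so each array bears on every test.

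Names came from the platform annotation of the array (12783 with 1 symbol, 312 with several, 2771 with none). Every member probe set was tested in every comparison and enters its counts, but not every one is named for each comparison. From other contractile lists up to 4 passing genes per direction with the smallest p were named, with 1 probe set per gene (highest mean). Myh11, Mylk and Cnn1, which did not pass, were named outside this rule. The members and lists were chosen with earlier results of these data known. Gene neighbours are the 3 genes with the highest Pearson r to a member's brightest probe set. Replicate numbers were not treated as pairs: the correlation of same-numbered deviations ran from -0.053 to 0.53 over 21 pairs of groups, with 15 above 0.1. Chip batches (8) and periods (3) were read from the form of the array names and are not known to be hybridisation batches. Period 2 held only testis arrays. Period 3 held both E13 ovary arrays and array 1 of E14 and E16 ovary, but of testis only E13 array 1. Sex and age were thus partly confounded with period. With the batch as a random block, the correlation within a batch was 0.38. Alternatives were other offsets, quantile normalization, a filter on dim probe sets, blocks for period, batch and replicate, fits on the compared groups alone, and leaving out arrays.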

Additional observations from a re-analysis of the deposited data

Results flagged for a closer look

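In 7 cases both arrays of the later age lay higher in testis and lower in ovary than those of the earlier age, without overlap. Of the 13 probe sets these were 3 for E16 against E13, 2 for E14 against E13 and 2 for E16 against E14, where 2.52%, 1.57% and 2.69% of all probe sets did the same. For E16 against E13 these were Tagln, whose step in testis exceeded that in ovary by 2.04 on the log2 scale (1.26 in testis and -0.79 in ovary), Tpm2 by 1.68 (1.35 in testis and -0.33 in ovary) and Myl9 by 0.96 (0.70 in testis and -0.26 in ovary). As the interaction of sex and age these 3 differences did not pass in limma (adjusted p = 0.387 for Tagln, 0.157 for Tpm2 and 0.445 for Myl9). For E14 against E13 they were Pln 1370157_at, by 0.99 (0.73 in testis and -0.26 in ovary), and Tpm1 1370287_a_at, by 0.65 (0.13 in testis and -0.52 in ovary). For E16 against E14 they were Myl9, by 0.84 (0.75 in testis and -0.09 in ovary), and Tpm1 1370288_a_at, by 0.66 (0.19 in testis and -0.48 in ovary). The last 4 differences were not tested. Some separations were narrow. Myl9 had 344.1 and 349.2 in E16 ovary against 349.5 and 389.1 in E14 ovary. Tpm1 1370287_a_at had 776.8 and 793.0 in E14 testis against 663.6 and 772.3 in E13 testis.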

How the results depend on the processing

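No named log2 difference that passed turned its sign under any alternative, and no member passed between the sexes at E13 or between neighbouring ages of the testis under any of them; the counts of passing member probe sets moved, and the cause was not tested unless given. At E16 the 8 passing probe sets became 3 with an offset of 1, 0 with the compared groups fitted alone (fewer arrays), 0 without the 4 arrays at odds with their Xist level, 2 without the 2 arrays with a high actin ratio, and 0 to 8 without single arrays. At E14 the 2 became 1 with an offset of 1, with the dim filter (which removes Pln), with the period block and without the high-ratio arrays, 0 in the fit on the compared groups and without the Xist arrays, and 0 to 2 without single arrays. For the mean of ages the 6 became 3 with the period block, 2 without the Xist arrays and 4 to 6 without single arrays. The interaction count of 0 became 1 with the period block. For testis E16 against E13 the 2 became 0 with an offset of 1, in the fit on the compared groups and without the Xist arrays, 4 with the period block and 0 to 3 without single arrays. For ovary E16 against E13 the 3 became 1 with an offset of 1 and without the high-ratio arrays, 0 in the fit on the compared groups and without the Xist arrays, and 1 to 4 without single arrays. For cultured against fresh E13 testis the 2 became 4 with the period block, 0 in the fit on the compared groups and without the Xist arrays, and 2 to 3 without single arrays. Against fresh E14 the 0 became 1 with an offset of 64, quantile normalization, the dim filter, the batch as a random block or the replicate block, 2 with the period block, and 0 to 1 without single arrays. Against fresh E16 it was 0, and 0 to 1 without single arrays. The replicate block gave 8 at E16, 7 for the mean of ages and 2 at E14 and changed no other count than that against fresh E14; same-numbered arrays were not shown to be pairs. With 2 arrays a group, dim probe sets such as Tpm1 1370513_at and 1371240_at carry little information. A count does not show which probe sets passed: after quantile normalization Tagln no longer did at E16, nor Pln 1388876_at for the mean of ages.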
